A study of Mus musculus with 4 samples.

Results

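Ruxolitinib, a drug that blocks the tyrosine kinases JAK1 and JAK2, was compared with control treatment in mouse bone marrow cells that carry the activated kinase JAK2V617F and lack Tet2. The comparison rests on 2 of the series' 4 libraries, the Tet2 knockout ruxolitinib library and the Tet2 knockout control library. A gene counted as measured when it averaged at least 1 FPKM (fragments per kilobase of transcript and 1000000 fragments) over the 4 libraries, and small RNA genes were left out. This kept 10234 of the 24340 genes in the table, 9935 of them protein-coding. All cells were lineage-negative and Kit-positive C57BL/6 bone marrow cells with JAK2V617F, and the genotype beside it was Tet2 knockout or Tet2+/+. Each genotype had 1 ruxolitinib library and 1 control library, so the other 2 libraries were Tet2 wild type with ruxolitinib and Tet2 wild type control. The labels used here give neither the dose, the duration of treatment, the age of the mice nor the number of animals behind a library. They also do not name the Cre line that removed Tet2. The series' design text speaks of conditional alleles in the blood system and of crosses with Flt3ITD, which the labels of these libraries do not name. Because each group was 1 library, no difference below has a replicate check, and the values describe these libraries.

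JAK2V617F is a form of JAK2 that signals without a cytokine. JAK2 phosphorylates STAT5, which then enters the nucleus and switches on genes that feed back on the pathway (the Cish and Socs inhibitors) and genes that favour survival and growth (the Pim kinases, Bcl2l1). STAT factors bind the palindrome TTCNNNGAA. Ruxolitinib blocks the kinase site of JAK1 and JAK2, and TET2 oxidises methylated cytosine in DNA. Mast cells, which carry Kit for life, depend on Kit and on cytokines that signal through JAK2 and STAT5.

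Some facts of the libraries bear on every value. The steps between the lowest FPKM values put 1 FPKM on a transcript of 1 kilobase at about 52.0 fragments in the knockout ruxolitinib library and 54.4 fragments in the knockout control library, estimates that include any scaling by Cuffdiff. The gene-level Tet2 value was 4.39 FPKM in the knockout ruxolitinib library and 3.62 FPKM in the knockout control library, and 5.05 and 4.69 FPKM in the wild-type ruxolitinib and control libraries. A value over the whole gene does not show whether an exon was deleted, so it is no check of the genotype label. The defining genes of mast cells were abundant in the knockout cells, with the chymase Cma1 at 10118 FPKM with ruxolitinib and 8289 FPKM in the control and the IgE receptor chain Fcer1a at 3648 and 3451 FPKM. Cpa3, another mast cell protease, was listed at 0 in all 4 libraries. The basophil marker Mcpt8 was also present, at 254 FPKM with ruxolitinib and 277 FPKM in the control. The list of 12 basophil and eosinophil markers, 5 of them measured, summed to 845 and 847 FPKM. The granulocyte progenitor genes Mpo (1.31 and 1.13 FPKM) and Elane (0.0256 and 0.0254 FPKM) were low, and the T cell gene Cd3e was listed at 0 in both. The list of neutrophil and granulocyte progenitor markers summed to 31.5 FPKM with ruxolitinib and 30.5 FPKM in the control, most of it from Ctsg, a protease that mast cells also make, at 27.3 and 27.1 FPKM (log2 ratio 0.01). In bulk RNA, fewer cells of a type and less RNA per cell cannot be told apart.

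Most genes were close in the ruxolitinib and control libraries of knockout cells. The log2 ratio of FPKM + 1, ruxolitinib over control, had a median of 0.00 over the measured genes, with 5% of genes below -0.37 and 5% above 0.36, and 8143 genes (79.6%) lay within 1.2-fold. At 2-fold or more, 36 genes were lower with ruxolitinib (0.352% of those measured, 33 of them protein-coding) and 17 were higher (0.166%, 16 protein-coding). At 1.5-fold or more, 157 genes were lower (1.53%) and 116 higher (1.13%). The lower genes had a median of 3.29 FPKM with ruxolitinib and 10.6 FPKM in the control, and the higher genes 16.1 and 6.46 FPKM. The authors' deposited table gives a q-value under 0.05 for 34 of the 36 lower genes and for all 17 higher genes, with Pet117 (0.680) and Amd1 (0.718) as the exceptions. Those q-values compare 2 libraries and not 2 conditions, and the smallest the table holds for this comparison is 0.000746.

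**Figure D1:**
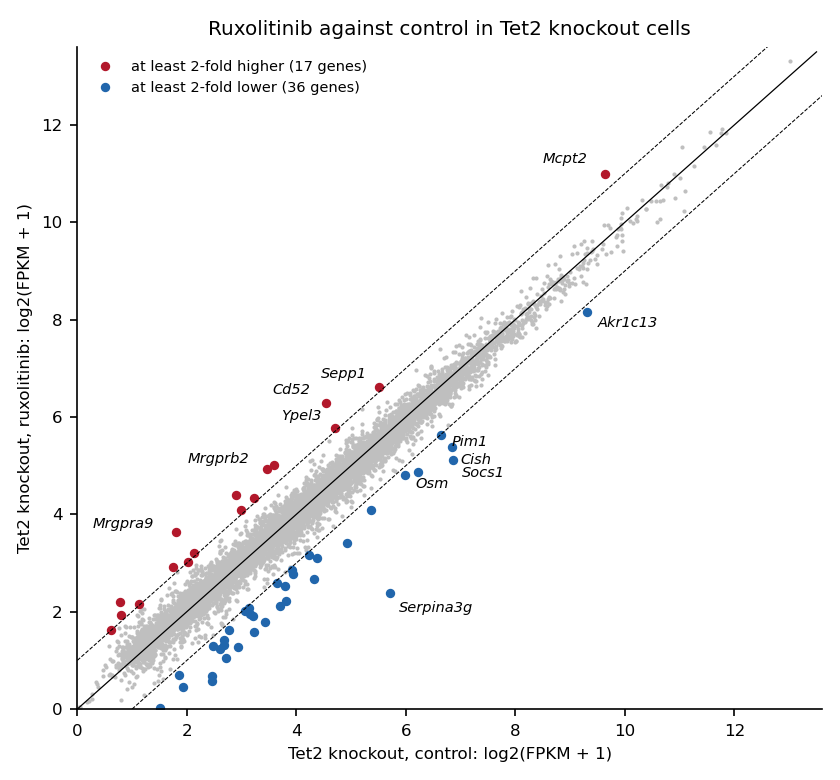
Expression of each measured gene in Tet2 knockout cells with ruxolitinib (vertical axis) against the control (horizontal axis), both as log2(FPKM + 1), with 1 library per axis. The solid line marks equal values and the dashed lines a 2-fold difference: 36 genes lie at or below the lower dashed line and 17 at or above the upper, and Serpina3g (4.22 FPKM with ruxolitinib, 51.7 FPKM in the control) is farthest from the diagonal.

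The promoters of 4 genes at 2-fold or more are shown because they hold the motif of STAT factors, on which JAK2 acts; they were picked for the motif and are not the 4 genes with the largest ratios. Each run is the RefSeq window of GRCm38.p6 from 250 bases before the gene's start to 30 bases from the start on, 5′ to 3′ on the gene's strand, with TTCNNNGAA in capitals. Cish lies at chr9:107296409-107296688 on the plus strand, Socs3 at chr11:117969337-117969616 on the minus strand and Serpina3g at chr12:104235897-104236176 on the plus strand. Bcl6, which was higher with ruxolitinib, lies at chr16:23981254-23981533 on the minus strand.
Cish: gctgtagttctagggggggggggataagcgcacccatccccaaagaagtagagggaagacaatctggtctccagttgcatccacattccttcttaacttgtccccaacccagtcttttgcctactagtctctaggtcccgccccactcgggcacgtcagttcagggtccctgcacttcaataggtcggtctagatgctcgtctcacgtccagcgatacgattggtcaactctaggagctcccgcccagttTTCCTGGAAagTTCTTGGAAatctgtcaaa
Socs3: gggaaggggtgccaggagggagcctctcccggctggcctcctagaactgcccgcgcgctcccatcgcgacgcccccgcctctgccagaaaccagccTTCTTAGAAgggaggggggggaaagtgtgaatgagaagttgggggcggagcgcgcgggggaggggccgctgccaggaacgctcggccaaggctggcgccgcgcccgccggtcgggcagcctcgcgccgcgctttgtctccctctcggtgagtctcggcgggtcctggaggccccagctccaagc
Serpina3g: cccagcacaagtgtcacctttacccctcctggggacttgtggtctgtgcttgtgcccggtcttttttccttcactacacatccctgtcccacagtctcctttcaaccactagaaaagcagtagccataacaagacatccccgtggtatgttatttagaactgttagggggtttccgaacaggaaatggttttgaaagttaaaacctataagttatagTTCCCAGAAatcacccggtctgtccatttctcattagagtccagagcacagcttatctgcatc
Bcl6: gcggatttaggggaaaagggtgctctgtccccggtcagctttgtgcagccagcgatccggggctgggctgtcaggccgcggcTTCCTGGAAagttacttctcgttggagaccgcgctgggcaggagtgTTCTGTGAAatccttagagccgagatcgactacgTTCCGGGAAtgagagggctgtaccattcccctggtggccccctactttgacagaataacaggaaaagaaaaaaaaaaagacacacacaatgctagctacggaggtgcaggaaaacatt
The letters of the motif start at the gene's start and 11 bases past it in Cish, 154 bases before the start in Socs3 and 33 bases before it in Serpina3g. The table holds 2 windows for Bcl6, at different starts, and the one shown has the most matches: 3, which start 168, 122 and 88 bases before that start.

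Over windows of 300 bases, from 250 before to 50 after the start, and on both strands, TTCNNNGAA was found in 6 of the 29 lower genes with a window (20.7%): Cish, Socs3, Serpina3g, Rpp25, Tgm1 and Usp17ld. It was found in 1 of the 13 higher genes with a window (7.69%), which is Bcl6. A gene with several windows counted if any of them held the motif, with 1.28 windows per gene among the lower genes, 1.38 among the higher and 1.27 among all measured. Of the 8340 measured genes with a window, 8.35% held the motif, and of all 32851 windows 8.3% did. The windows of Socs1, Pim1 and Pim2 held no match, which says only that these letters are not in these windows. The motif CACGTG, the E-box that Myc proteins bind, was in 4 of the 29 lower genes (13.8%) and in 12.4% of measured genes with a window. A match is a description of the letters and not a binding site.

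The feedback inhibitors of cytokine signalling were lower with ruxolitinib. Socs1, at chr16:10783809-10785536 in mm10, had 33.5 FPKM with ruxolitinib and 116 FPKM in the control, a log2 ratio of -1.76. Cish (chr9:107296689-107301961) had 40.7 FPKM with ruxolitinib and 114 FPKM in the control, a log2 ratio of -1.46. Both block the JAK and receptor complex that induces them. Socs3 had 2.47 and 9.77 FPKM, a log2 ratio of -1.63, and Socs2, which restrains growth hormone signalling, had 14.1 and 21.8 FPKM, a log2 ratio of -0.59. All 4 were lower with ruxolitinib, Socs2 by the smallest log2 ratio. The wild-type pair gave the same direction, with log2 ratios of -1.86 for Socs1, -1.93 for Cish, -3.04 for Socs3 and -0.60 for Socs2.

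The Pim kinases, serine and threonine kinases that favour survival, were lower as a family. Pim2 had 3.64 FPKM with ruxolitinib and 13.0 FPKM in the control (log2 ratio -1.59). Pim1 had 48.3 and 98.6 FPKM (-1.01), which puts it just inside the 2-fold rule, and Pim3 had 8.19 and 15.5 FPKM (-0.84). The cytokine oncostatin M, Osm, had 26.9 FPKM with ruxolitinib and 62.3 FPKM in the control (-1.18). Id1, an inhibitor of basic helix-loop-helix factors, had 1.99 and 8.32 FPKM (-1.64), and the phosphatase gene Dusp5 had 2.37 and 4.23 FPKM (-0.63).

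Of the 17 measured members of a list of 18 STAT5 and cytokine feedback targets, 10 were lower by 1.5-fold or more and 1 was higher, against 1.53% and 1.13% of all measured genes. Their median log2 ratio was -0.63, beside 0.00 over all measured genes. The list and its members were chosen with earlier results of these data known, so the contrast only describes them. The list's 18th gene, Il2ra, was below the filter at 0.0416 and 0.0687 FPKM. The survival genes of the list were closer to 0: Bcl2l1, which encodes the BCL-XL protein, had 30.1 FPKM with ruxolitinib and 41.4 FPKM in the control (-0.45), and Mcl1 had 91.3 and 92.2 FPKM (-0.01). The D-type cyclins differed in direction, as Ccnd2 had 129 and 145 FPKM (-0.17) and Ccnd1 20.0 and 13.9 FPKM (0.50). Bcl6, a transcriptional repressor and the list's member on the higher side, had 2.08 FPKM with ruxolitinib and 0.524 FPKM in the control (1.02). The wild-type pair had a median of -0.62 over the same list, with 10 lower and 1 higher, against 1.98% and 0.489% of all measured genes.

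**Figure D2:**
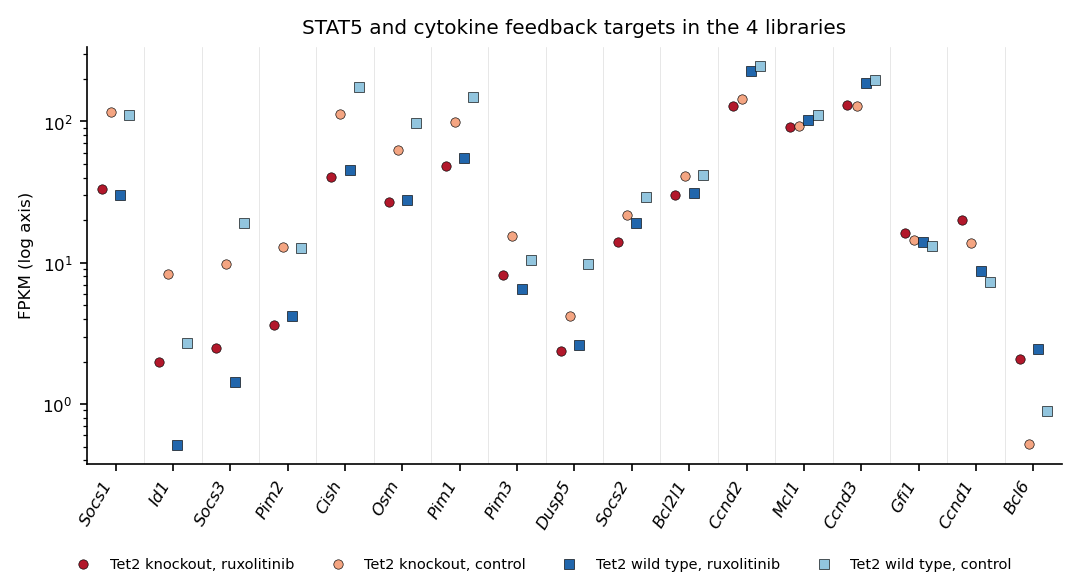
Level of each measured STAT5 and cytokine feedback target in the 4 libraries, in FPKM on a log axis, 1 point per library, with genes in order of their log2 ratio in knockout cells. In knockout cells the ruxolitinib point lies below the control point from Socs1 (33.5 against 116 FPKM) to Mcl1 (91.3 against 92.2 FPKM) and above it from Ccnd3 to Bcl6.

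The components of the pathway themselves were not lower. All 11 measured Janus kinases and STAT factors had a positive log2 ratio in knockout cells, with a median of 0.11 and none at 1.5-fold, while 51% of all measured genes were positive. Jak2 had 24.9 FPKM with ruxolitinib and 24.5 FPKM in the control (0.02), and Jak1 71.3 and 63.4 FPKM (0.17). Stat5a had 37.3 and 34.5 FPKM (0.11), Stat5b 38.0 and 31.0 FPKM (0.28), and Stat3 32.8 and 25.5 FPKM (0.35). In the wild-type pair 4 of the 11 were negative. The 16 adaptor and phosphatase brakes on JAK2 had a median of 0.06, with none at 1.5-fold.

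Among 17 measured cytokine and growth factor receptors the median was 0.12, which was 0.0 without the filter on low values. At 1.5-fold 0 were lower and 1 higher, against 1.53% and 1.13% of all measured genes. The receptor of stem cell factor, Kit, had 562 FPKM with ruxolitinib and 421 FPKM in the control (0.42), and the interleukin-5 receptor chain Il5ra had 9.02 and 5.45 FPKM (0.64). The shared beta chains for interleukin-3, interleukin-5 and GM-CSF went the other way, with Csf2rb at 725 and 926 FPKM (-0.35) and Csf2rb2 at 1022 and 1532 FPKM (-0.58). The wild-type log2 ratios of these 4 genes had the same signs, with 0.41 for Kit, 0.79 for Il5ra, -0.39 for Csf2rb and -0.58 for Csf2rb2.

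The gene with the lowest log2 ratio of all was Serpina3g, an inhibitor of intracellular proteases in leukocytes. The authors' deposited table gives its locus as chr12:104214544-104241934, a wider interval that holds the promoter window shown above. Serpina3g had 4.22 FPKM with ruxolitinib and 51.7 FPKM in the control, a log2 ratio of -3.34. The wild-type pair had 6.09 and 92.4 FPKM (-3.72). The family member Serpina3f was below the filter at 0.0196 and 0.376 FPKM, and Serpina3g was the family's 1 measured gene among 11. Car12, a membrane carbonic anhydrase, had 5.38 and 19.0 FPKM (-1.64). Mycn, a member of the Myc family of growth regulators, had 3.34 and 12.0 FPKM (-1.58). Usp17ld, a deubiquitinase of a multi-copy family, had 1.06 and 5.54 FPKM (-1.67), a value that reads shared with its copies could affect.

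Other genes at 2-fold or lower came from several classes. Slfn2, a Schlafen gene linked to quiescence in lymphocytes, had 28.3 FPKM with ruxolitinib and 73.7 FPKM in the control (-1.35), while its family member Slfn3 had 12.1 and 12.0 FPKM (0.01). The receptor phosphatase gene Ptprg had 16.0 and 40.3 FPKM (-1.28). The pyruvate carboxylase gene Pcx had 7.63 and 19.9 FPKM (-1.27), and the annexin gene Anxa2 5.84 and 14.4 FPKM (-1.17). These 4 genes were also lower in the wild-type pair, by log2 ratios from -1.14 for Slfn2 to -1.44 for Pcx. Further genes of this set were Icosl, a ligand of the costimulatory receptor ICOS (-1.06), Fabp5, a fatty acid binding protein (-1.06), Fut8, a fucosyltransferase (-1.06), and Map3k8, a kinase upstream of ERK (-1.15).

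The Akr1c genes, aldo-keto reductases clustered on chromosome 13, were picked out after their values were seen. Akr1c13 had 284 FPKM with ruxolitinib and 633 FPKM in the control (-1.15). Akr1c12 had 56.5 and 108 FPKM (-0.93), and Akr1c18, which inactivates progesterone, had 0.610 and 4.47 FPKM (-1.77). All 3 measured members were lower in knockout cells. In the wild-type pair Akr1c13 (-0.92) and Akr1c12 (-1.04) were lower too, while Akr1c18 was listed at 0 and 0.0234 FPKM. The genes are near-identical copies in part, so reads could be split between them.

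Of 10 measured cytokine genes, 9 had a negative log2 ratio and 3 were lower by 1.5-fold or more, with a median of -0.33. Among all measured genes 49% were negative and 1.53% were lower by 1.5-fold or more. Il13, a type 2 cytokine of mast cells, had 1.34 FPKM with ruxolitinib and 5.05 FPKM in the control (-1.37), and Lif, a relative of Osm, had 10.7 and 19.7 FPKM (-0.83). Il4 had 4.89 and 6.65 FPKM (-0.38), and Tnf 13.8 and 15.5 FPKM (-0.16). The exception was Csf1, the macrophage growth factor, with 9.44 and 6.22 FPKM (0.53). Without the filter on low values, the median over the listed cytokines was -0.09, since the genes near 0 then count.

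The 8 measured chemokines split evenly, with 4 negative, 4 positive and a median of -0.15, which was 0.0 without the filter on low values and -0.36 with a mean of at least 5 FPKM. Ccl6 had 8.58 FPKM with ruxolitinib and 17.1 FPKM in the control (-0.92), Ccl7 11.7 and 20.1 FPKM (-0.72), and Ccl3 2.41 and 5.13 FPKM (-0.85). These 3 passed the 1.5-fold rule, as 1.53% of all measured genes did on the lower side. Ccl2, which attracts monocytes and had the highest level of the 8, had 457 and 440 FPKM (0.06), and Ccl17 had 15.1 and 10.4 FPKM (0.49). In the wild-type pair the 8 had a median of -1.06, with 5 lower at 1.5-fold, beside 1.98% of all measured genes.

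Other signalling and stress lists held few members at 1.5-fold in number. Among all measured genes 1.53% were lower and 1.13% higher by that rule, and in lists this short 1 member is already a larger share. Of 14 measured NF-kB factors and feedback targets 1 was higher, Tnfaip2, and the median was 0.14, with 11 positive beside 51% of all measured genes. Of 13 measured interferon-stimulated genes 1 was lower, the membrane protein Ifitm3 with 16.8 FPKM with ruxolitinib and 30.8 FPKM in the control (-0.83), and 1 was higher, the GTPase gene Gbp2 with 2.20 and 0.864 FPKM (0.78). The 12 measured MAPK feedback genes had a median of 0.08, with Dusp5 the 1 lower gene and Dusp6, which dephosphorylates ERK, at 43.2 and 35.1 FPKM (0.29). Oxidative stress genes had a median of -0.05, p53 targets -0.11, G1 cyclins and inhibitors -0.07 and lysosome genes 0.07, with none at 1.5-fold in these 4 lists.

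Genes for building ribosomes were lower by a small amount and all in one direction. Of 30 nucleolar ribosome biogenesis factors, 30 had a negative log2 ratio, where 49% of all measured genes did, and their ratios ran from -0.65 to -0.26 with a median of -0.45. Only 1 of them, Nop16, passed the 1.5-fold rule, with 21.8 FPKM with ruxolitinib and 34.6 FPKM in the control (-0.65). Nucleolin, Ncl, had 100.05 and 144 FPKM (-0.53), nucleophosmin, Npm1, 198 and 271 FPKM (-0.45), and the box C/D snoRNP core proteins Nop58 and Nop56 had 83.6 and 116 FPKM (-0.47) and 42.4 and 56.9 FPKM (-0.42). The wild-type median of the list was -0.25. Among the promoters of the list, 5 of 25 (20%) held CACGTG, beside 12.4% of measured genes with a window.

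The 29 measured cytosolic ribosomal protein genes had a median of -0.15, with 24 negative, beside 49% of all measured genes. Many have processed copies elsewhere in the genome, so their values are uncertain, as for Rpl38 at 1.89 and 4.58 FPKM (-0.95). Of the Myc network, Myc itself had 53.4 FPKM with ruxolitinib and 61.0 FPKM in the control (-0.19), Mycn was lower as given above, and Mxd4, an antagonist of Myc, had 45.8 and 31.4 FPKM (0.53). The network's 10 measured genes had a median of 0.06.

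Metabolic lists had small medians. The 9 measured polyamine genes had a median of -0.16, which was 0.064 when a mean of 5 FPKM was required. Of the 9, 5 were negative and 3 lower at 1.5-fold, against 49% and 1.53% of all measured genes. In polyamine synthesis, spermidine synthase, Srm, had 100.2 FPKM with ruxolitinib and 166 FPKM in the control (-0.72), and ornithine decarboxylase, Odc1, had 15.6 and 25.6 FPKM (-0.68). Spermine oxidase, Smox, which works against them, had 11.4 and 7.56 FPKM (0.54). The remaining gene of the list at 1.5-fold, Amd1, was measured at 0.0149 and 1.86 FPKM at a locus that the table merges with Amd2, and the authors' deposited table gives it a q-value of 0.718. Of 20 purine and pyrimidine synthesis genes 17 were negative, with a median of -0.18, where 49% of all measured genes were negative. Of 10 serine and one-carbon genes 9 were negative, with a median of -0.30.

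Lipid synthesis showed the same small tilt. Of 23 measured cholesterol genes 22 were negative, where 49% of all measured genes were. Their median was -0.25 beside -0.34 in the wild-type pair, and 1 passed the 1.5-fold rule. That gene, Mvd, which makes isopentenyl diphosphate, had 26.6 FPKM with ruxolitinib and 40.7 FPKM in the control (-0.60). Hmgcs1, the synthase ahead of the rate-limiting reductase, had 112 and 148 FPKM (-0.39). The sterol element TCACNCCAC was in 1 of 16 promoters of this list (6.25%) and in 1.32% of measured genes with a window. In fatty acid synthesis the desaturase Scd1 had 20.1 and 36.9 FPKM (-0.85) and the synthase Fasn 49.6 and 73.3 FPKM (-0.55), and the list's 13 genes had a median of -0.16.

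Of 27 measured glycolysis and hypoxia genes, 3 were lower and 1 higher at 1.5-fold, against 1.53% and 1.13% of all measured genes. Their median was -0.15 beside -0.35 in the wild-type pair. The mitophagy receptor Bnip3, just outside the 2-fold rule, had 6.54 FPKM with ruxolitinib and 13.9 FPKM in the control (-0.98). The lactate exporter Slc16a3 had 22.9 and 36.3 FPKM (-0.64), and the mutase Pgam1 5.81 and 10.9 FPKM (-0.80). Ndrg1, a gene induced by hypoxia and differentiation, went the other way with 71.0 and 35.97 FPKM (0.96), where the wild-type pair had 41.3 and 38.0 FPKM (0.12). Beside 49% of all measured genes, all 25 nuclear-encoded respiratory chain subunits were negative, from -0.40 to -0.01, with a median of -0.15. Highly expressed genes leaned the same way in general: the 2402 protein-coding genes with the highest levels had a median log2 ratio of -0.05, and the 2403 with the shortest transcripts also -0.05. The part of level or length in these small shifts was not tested.

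Protein-folding genes were also lower by small amounts. The 20 genes of the unfolded protein response of the endoplasmic reticulum had a median of -0.32, with 17 negative and none at 1.5-fold. For this and the next 2 lists, the share of negative ratios among all measured genes was 49%. Calreticulin, Calr, had 680 FPKM with ruxolitinib and 996 FPKM in the control (-0.55), the transcription factor Xbp1 had 99.1 and 141 FPKM (-0.51), and the chaperone Hspa5 332 and 455 FPKM (-0.45). Of 13 measured heat shock and cytosolic chaperone genes 12 were negative, with a median of -0.33, and Hspd1 of the mitochondrial chaperonin had 42.8 and 69.4 FPKM (-0.68). The 28 measured ATF4 genes and aminoacyl-tRNA synthetases had 26 negative members and a median of -0.21, with Cebpb at 7.35 and 12.2 FPKM (-0.66) and Ddit4, an inhibitor of mTOR signalling, on the other side at 114 and 82.6 FPKM (0.46).

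**Figure D3:**
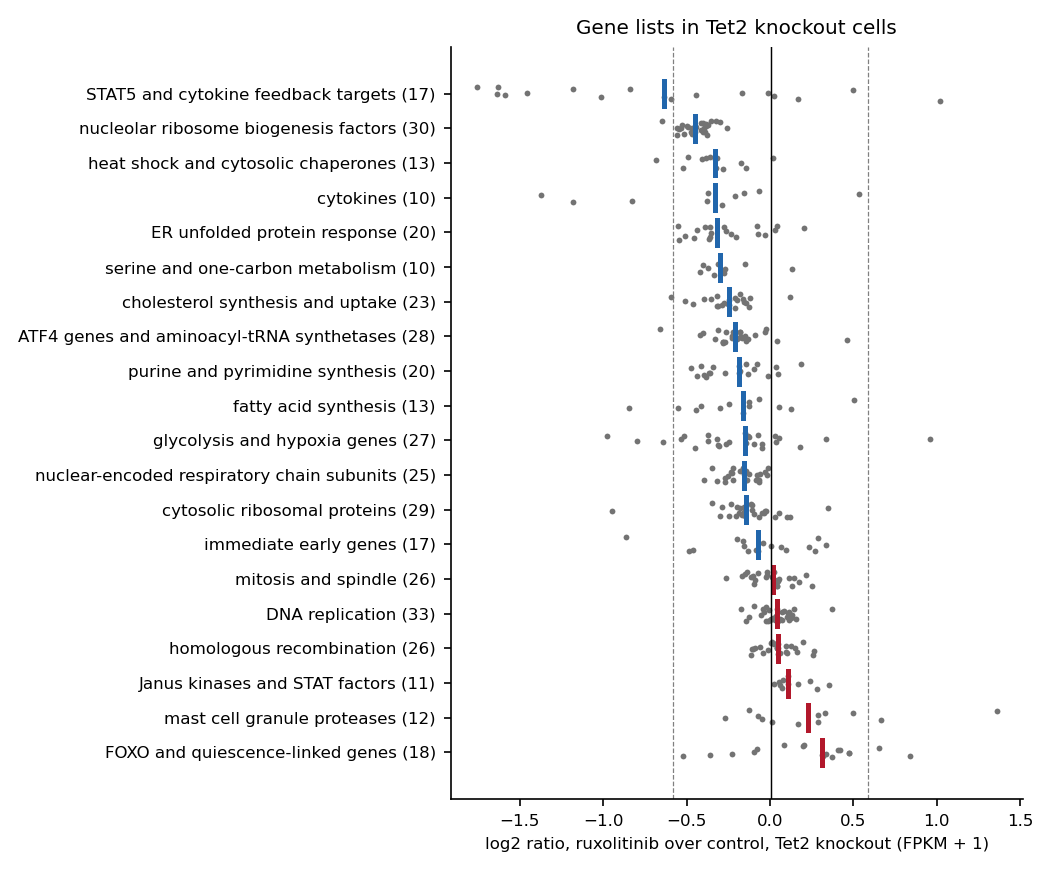
Log2 ratio of FPKM + 1, ruxolitinib over control, in Tet2 knockout cells for the measured members of 20 gene lists (number of genes in brackets), 1 point per gene, with a bar at each list's median. The solid line is the median of all measured genes and the dashed lines mark 1.5-fold; the STAT5 target list has the lowest median (-0.63) of the lists drawn and the FOXO and quiescence-linked list the highest (0.31).

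On the higher side, genes of mast cell granules and receptors stood among the 10 leading genes. The chymase Mcpt2, at chr14:56042123-56044634, had 2043 FPKM with ruxolitinib and 794 FPKM in the control, a log2 ratio of 1.36, and the wild-type pair had 3518 and 2085 FPKM (0.75). Mrgprb2, the receptor through which cationic peptides and drugs activate connective tissue mast cells, had 29.6 and 10.01 FPKM (1.47). In wild-type cells Mrgprb2 was at 1.52 and 0.769 FPKM (0.51), so its level in both knockout libraries was above that in both wild-type libraries. Mrgpra9, a related receptor, had the highest log2 ratio of all, with 11.5 and 2.49 FPKM (1.84). Of the 20 Mas-related receptor genes in the table, a family looked at after its values were seen, 6 were measured, and Mrgpra6 (0.86), Mrgpra4 (0.39), Mrgpre (0.22) and Mrgprb1 (0.06) were positive too.

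Other higher genes were of several kinds. Cd52, a small surface glycoprotein of leukocytes, had 77.5 FPKM with ruxolitinib and 22.4 FPKM in the control (1.75). Dhrs3, which reduces retinaldehyde, had 20.1 and 6.46 FPKM (1.5), and Tnfaip2, a target of NF-kB, had 31.4 and 11.0 FPKM (1.43). Sepp1, the selenium carrier selenoprotein P, had 97.5 and 44.6 FPKM (1.11). Ramp1, a subunit of the receptor for the neuropeptide CGRP, had 8.29 and 3.37 FPKM (1.09), and Ypel3, a gene that slows growth when raised in cell lines, had 53.8 and 25.05 FPKM (1.07). All of these had a positive log2 ratio in the wild-type pair, from 0.22 for Ypel3 to 1.13 for Cd52. Cd300lb, an activating receptor of myeloid cells, had 19.1 and 8.34 FPKM (1.10) in knockout cells, while the wild-type pair had 35.3 and 35.5 FPKM (-0.01). Its relative Cd300a, an inhibitory receptor, had 31.4 and 22.9 FPKM (0.44) in knockout cells. Cd300lf, the most abundant of the 3 measured genes with a Cd300 symbol, had 52.6 and 56.5 FPKM (-0.10) there.

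**Figure D4:**
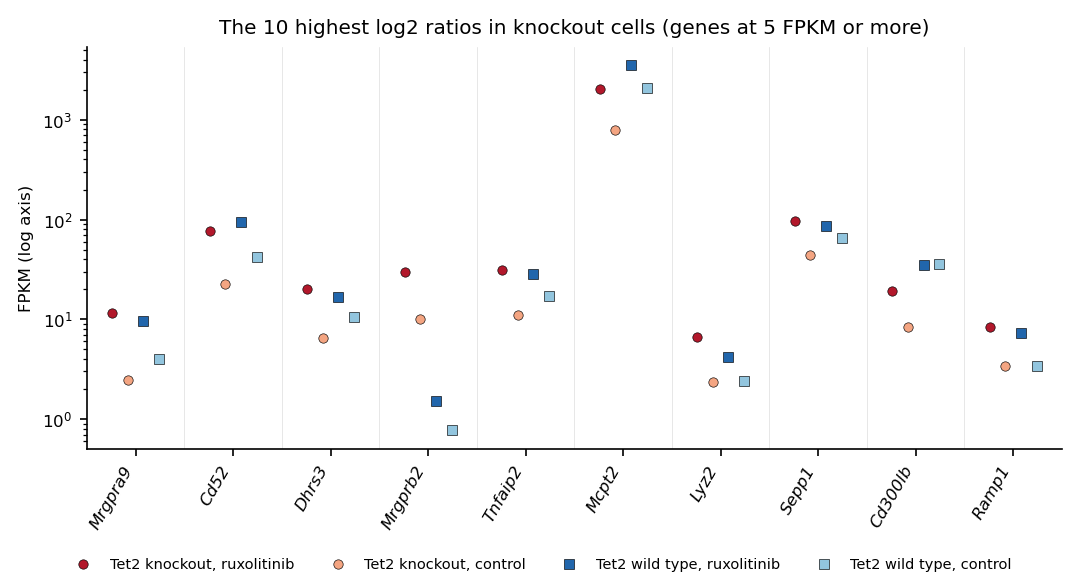
Level in the 4 libraries of the 10 genes with the highest log2 ratio in Tet2 knockout cells among protein-coding genes with at least 5 FPKM in a knockout library, in FPKM on a log axis, 1 point per library. In knockout cells each ruxolitinib point lies above its control point, as for Mcpt2 (2043 against 794 FPKM), and Mrgprb2 is lower in both wild-type libraries (1.52 and 0.769 FPKM) than in the knockout libraries.

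Lyz2 and Itgax are genes of monocytes, macrophages and dendritic cells. Lyz2, which encodes lysozyme, had 6.61 FPKM with ruxolitinib and 2.36 FPKM in the control (1.18), and the integrin Itgax had 3.58 and 0.723 FPKM (1.41). Both were higher in the wild-type pair too, with Lyz2 at 4.15 and 2.41 FPKM (0.60) and Itgax at 2.12 and 0.510 FPKM (1.05). Of 19 monocyte and macrophage markers 6 were measured, and 5 of them were positive, beside 51% of all measured genes. Their median was 0.23, with 1 lower and 1 higher at 1.5-fold, against 1.53% and 1.13% of all measured genes. The lower one, Adgre1, which encodes the F4/80 antigen, had 2.70 and 5.34 FPKM (-0.78). The summed level of the 19 was 45.9 FPKM with ruxolitinib and 39.2 FPKM in the control. The defining markers Csf1r (0.197 and 0.193 FPKM), Mpeg1 (0.120 and 0.189 FPKM) and Cd14 (0.480 and 0.312 FPKM) were near 0, and C1qb was listed at 0 in both. Their part in the Lyz2 and Itgax ratios was not tested.

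The lists of mast cell surface markers and granule proteases leaned to the higher side by small amounts. The 11 measured mast cell surface markers had a median of 0.22, with 9 positive and 1, Mrgprb2, at 2-fold. Among all measured genes 51% were positive, and 1.53% were lower and 1.13% higher by 1.5-fold or more. The 12 measured granule proteases had a median of 0.23, with 8 positive, 0 lower and 2 higher at 1.5-fold, and summed to 23034 FPKM with ruxolitinib and 18527 FPKM in the control. Mcpt1 had 263 and 165 FPKM (0.66), and Mcpt4 had 2981 and 2111 FPKM (0.50). Of the 4 negative proteases, the tryptase Tpsab1 was lowest, with 42.9 and 52.0 FPKM (-0.27). Gzmb, a granzyme, had 3096 and 3261 FPKM (-0.07). The 15 genes of the IgE receptor and its proximal signalling had a median of 0.07 and none at 1.5-fold. The 12 measured genes of mediator synthesis had a median of 0.09, with 7 positive. The 13 measured mast and progenitor transcription factors had a median of 0.05, with 7 positive. Among enzymes for mediators, Tph1, the rate-limiting enzyme of serotonin synthesis outside the brain, was lower, with 1197 FPKM with ruxolitinib and 2168 FPKM in the control (-0.86), while Alox5ap, a partner of 5-lipoxygenase, had 636 and 448 FPKM (0.50). The lineage factors Gata2 (333 and 349 FPKM), Gata1 (88.1 and 97.5 FPKM) and Mitf (26.5 and 23.4 FPKM) had log2 ratios of -0.07, -0.15 and 0.17, and Bhlhe40, a basic helix-loop-helix factor, had 73.8 and 112 FPKM (-0.59).

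Markers of other blood lineages were mixed in direction. For the counts at 1.5-fold below, 1.53% of all measured genes were lower and 1.13% higher. The 8 measured megakaryocyte and platelet genes had a median of 0.22 and summed to 1096 FPKM with ruxolitinib and 1001 FPKM in the control, with none at 1.5-fold. Of 14 erythroid markers 4 were measured, 2 lower and 0 higher at 1.5-fold. The transferrin receptor Tfrc had 34.7 FPKM with ruxolitinib and 55.5 FPKM in the control (-0.66) and the globin gene Hbb-bt 1.47 and 2.72 FPKM (-0.59), while the erythropoietin receptor Epor had 3.29 and 2.46 FPKM (0.31) and the carbonic anhydrase Car2 43.7 and 31.5 FPKM (0.46). Of 16 neutrophil and granulocyte progenitor markers 1 was measured, of 12 T and NK cell markers 1, and of 10 B cell markers 0. The 10 measured stem and progenitor markers ran from -1.58 for Mycn to 0.67 for Hlf, with a median of 0.13, 3 negative, and 1 lower and 1 higher at 1.5-fold. Cd34 had 465 and 317 FPKM (0.55), and Cd48, a surface marker of more mature cells, had 51.4 and 66.4 FPKM (-0.36).

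FOXO and quiescence-linked genes leaned to the higher side. Of 18 measured, 13 were positive and 2 were higher by 1.5-fold or more, against 51% and 1.13% of all measured genes. Their median was 0.31 beside 0.00 in the wild-type pair. Pik3ip1, an inhibitor of PI3 kinase, had 33.9 FPKM with ruxolitinib and 18.5 FPKM in the control (0.84), and the authors' deposited table gives it a q-value of 0.183. Ccng2, a cyclin of arrested cells, had 17.2 and 10.6 FPKM (0.65), Txnip, which limits glucose uptake, had 160 and 115 FPKM (0.48), and the cell cycle inhibitor Cdkn1b had 16.6 and 11.7 FPKM (0.47). Another inhibitor, the p53 target Cdkn1a, went the other way with 228 and 332 FPKM (-0.54).

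Proliferation and DNA repair genes, the subject of the series' title, showed ratios near 0. None of 33 DNA replication genes passed the 1.5-fold rule, with a median of 0.04, and none of 26 mitosis genes did, with a median of 0.02. The 26 homologous recombination genes ran from -0.12 to 0.27 with a median of 0.05. Brca1 had 12.2 FPKM with ruxolitinib and 11.1 FPKM in the control (0.13). Of 12 measured genes of classical end joining none passed, and its ligase Lig4 had 2.43 and 2.35 FPKM (0.03). The 12 genes of alternative end joining and strand-break repair had a median of 0.00, and Parp1, the main target of PARP inhibitors, had 48.5 and 49.6 FPKM (-0.03). With 1 library a side, a difference of this size can be neither shown nor denied.

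Among 12 measured BCL2 family genes the median was 0.00, and none passed the 1.5-fold rule. Bcl2 had 6.38 FPKM with ruxolitinib and 9.73 FPKM in the control (-0.54), and the death-promoting gene Bbc3 had 32.4 and 23.6 FPKM (0.44). The 7 measured TET and DNMT genes were all positive, beside 51% of all measured genes. Their median was 0.14, and Dnmt3a had 9.46 and 9.36 FPKM (0.01).

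The wild-type pair shares no library with the knockout pair, so their ratios can be set side by side. In wild-type cells 76 genes were lower (0.743%) and 4 higher (0.0391%) by 2-fold or more, and 203 lower (1.98%) and 50 higher (0.489%) by 1.5-fold or more. Of the 36 lower genes in knockout cells 27 were also 2-fold lower in wild type, which is 75% of the knockout list and 35.5% of the wild-type list. Of the 17 higher genes 3 were 2-fold higher in wild type, which is 17.6% of the knockout list and 75% of the wild-type list, and 11 were higher by 1.5-fold. Over all 10234 genes the log2 ratios of the pairs had a Pearson correlation of 0.71 and a Spearman correlation of 0.71. Genes are not independent replicates, and this describes the libraries only.

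Immediate early genes, which cells switch on within minutes of a signal, had unlike ratios in the knockout and wild-type pairs. Of 17 measured, 1 was lower by 1.5-fold in knockout cells and 12 in wild-type cells, with medians of -0.07 and -0.78. Over all measured genes the lower shares were 1.53% in knockout and 1.98% in wild-type cells, with medians of 0.00 and 0.01. Egr1 had 26.3 FPKM with ruxolitinib and 22.2 FPKM in the control in knockout cells (0.23), and 16.6 and 41.4 FPKM in wild-type cells (-1.27). Nr4a1 had 7.99 and 8.46 FPKM in knockout cells (-0.07), and 6.73 and 37.8 FPKM in wild-type cells (-2.33). Fosb had 2.70 and 4.18 FPKM in knockout cells (-0.49), and 3.13 and 21.3 FPKM in wild-type cells (-2.43). For all 3 genes the wild-type control library was the highest of the 4. Il13 was alike in this, with 1.34 and 5.05 FPKM in knockout cells and 0.50 and 17.7 FPKM in wild-type cells (-3.64). Whether the responses differ between genotypes could not be tested with 1 library per group.

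**Figure D5:**
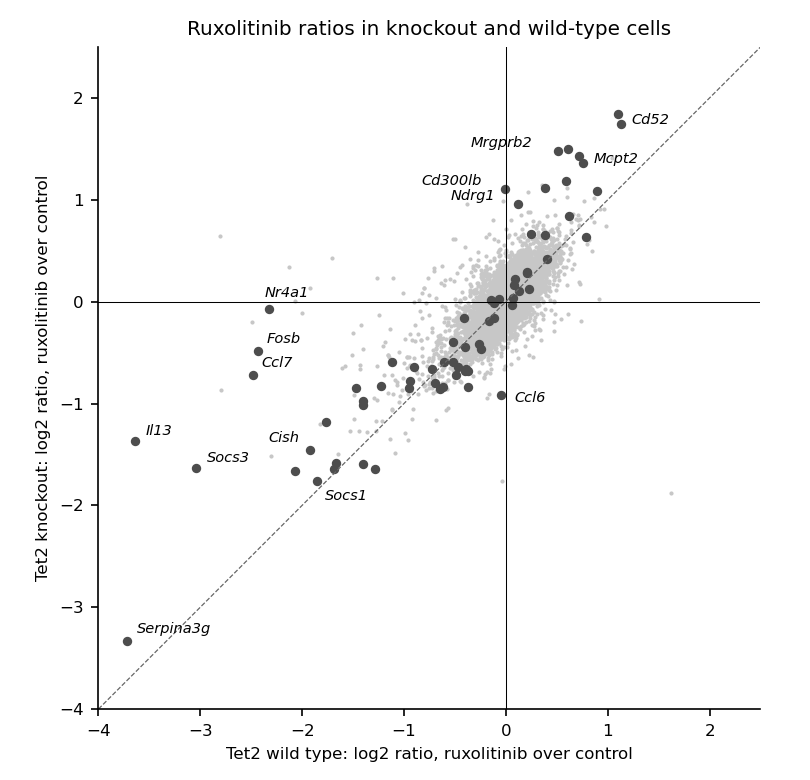
Log2 ratio of FPKM + 1, ruxolitinib over control, in Tet2 knockout cells (vertical axis) against Tet2 wild-type cells (horizontal axis) for all measured genes (light points) and the named genes (dark points), 1 library per group. The dashed line marks equal ratios; Socs1 (-1.76 and -1.86) and Serpina3g (-3.34 and -3.72) lie near it, while Fosb (-0.49 and -2.43), Nr4a1 (-0.07 and -2.33) and Il13 (-1.37 and -3.64) lie above it.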

How the data were processed

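Per the labels' protocols, ribosomal RNA was removed from total RNA before Illumina sequencing. The submitters' processing notes name STAR, Cuffdiff and the build mm10. Which versions and gene annotation they used is not given in the sources used here. What the authors deposited is a table of FPKM per gene and library and a table of library pairs with log2 fold changes, p-values and q-values per the file headers. The authors' values per library in it (2 columns) were left aside. Of its 6 comparisons, the knockout pair is reported here for q-values and gene coordinates, and the wild-type pair only for the q-value of Pet117. Groups follow the titles in the labels.

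Each ratio is on the log2(FPKM + 1) scale, so changes of low genes are understated. No test was run, because each group had 1 library. Genes were counted at 2-fold, list members at 1.5-fold, and lists with at least 5 measured members were given a median. The members and 51 lists were chosen with earlier results of these data known. Named genes were the 10 highest and 10 lowest protein-coding genes with at least 5 FPKM in a knockout library, up to 6 leading members per list at 1.5-fold, and a fixed set. Other genes named in the text, and gene families, were chosen after their values were seen. Of the table's genes at a mean of 1 FPKM, 237 small RNA genes were left out (60 lower and 49 higher at 2-fold), and 22 matched no name in the reference tables. Depth was estimated from the steps between low values: 72.2% to 85.2% of the values checked lay within 0.15 of a whole multiple, where 30% would without steps. Intervals were not formed, since these are estimates and not counts. The ratio step was tested on simulated data. Alternatives were pseudocounts of 0.1 and 5, other filters, TPM, centring, protein-coding genes and a 3-fold rule. Promoters are RefSeq windows of GRCm38.p6. Gene coordinates are the loci of the authors' table (mm10), and the locus of Serpina3g reaches past its promoter window on both sides. Software was Python 3.11.15 with matplotlib 3.10.9, scipy 1.17.1, pandas 2.3.3 and numpy 2.4.6.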

Additional observations from a re-analysis of the deposited data

Results flagged for a closer look

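Pet117, an assembly factor of cytochrome oxidase at chr2:144368983-144407675, had opposite directions in the genotypes. Its log2 ratio with ruxolitinib was -1.88 in knockout cells, with 0.4998 FPKM with ruxolitinib and 4.53 FPKM in the control, and 1.62 in wild-type cells, with 4.97 and 0.941 FPKM. The authors' deposited table gives a q-value of 0.680 for the knockout pair and 0.699 for the wild-type pair. The difference between the genotypes was not tested, since each group is 1 library.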

How the results depend on the processing

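No paired analysis was possible because each group is 1 library, and for the same reason no library could be left out. The count of genes at 2-fold, 36 lower and 17 higher, was 66 and 39 with a pseudocount of 0.1 FPKM, 11 and 7 with a pseudocount of 5 FPKM, and 10 and 2 under a 3-fold rule. With values rescaled to TPM it was 45 lower and 29 higher. It was 38 and 18 without a filter on low values, 25 and 12 with a mean of at least 5 FPKM, 36 and 16 after centring, and 33 and 16 over protein-coding genes. Rescaling to TPM moved the median of all genes to 0.03. The median of the STAT5 target list was -0.81 with a pseudocount of 0.1 and -0.49 with a pseudocount of 5, and its count of lower members stayed within 1.5 times under each alternative run. The median of the cytokine list was -0.09 without the filter, that of the megakaryocyte list 0.032, and that of the monocyte list, 0.23 as reported, was 0.030 without it and 0.12 with a pseudocount of 5. The chemokine median of -0.15 was 0.0 without the filter and -0.36 with a mean of at least 5 FPKM. The median of the cytokine and growth factor receptors, 0.12 as reported, was 0.0 without the filter. The polyamine median of -0.16 changed sign to 0.064 with a mean of at least 5 FPKM, and was -0.051 without the filter and -0.047 with a mean of 1 FPKM over the knockout libraries. No list median or named gene ratio beyond 0.2 in size changed direction under these alternatives. Lowly expressed genes such as Il13, Id1 and Socs3 depend most on the pseudocount by its construction. Depth limits genes near 1 FPKM most. The spread between animals or cultures is unknown, which limits every value.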

Other observations

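Some genes past the 1.5-fold rule lie near each other on a chromosome in mm10. The pairs were picked after the values were seen, and how often neighbours share a direction over all genes was not computed. Osm (chr11:4236785-4241026) and Lif (chr11:4257568-4272514), cytokines of the same family, had log2 ratios of -1.18 and -0.83 in knockout cells. Map3k8 (chr18:4331327-4352953) and the noncoding gene 4833419F23Rik (chr18:4353547-4368945) had -1.15 and -1.65, with 0.635 FPKM with ruxolitinib against 2.63 FPKM in the control for Map3k8, and 1.43 against 6.62 FPKM for 4833419F23Rik. On the higher side, Cd300lb (chr11:114922781-114934386) and AF251705 (chr11:114996769-115001880) had 1.10 and 1.11. The sources used here do not state whether counting used strand, so reads shared between neighbours cannot be told apart.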
